A study of Mus musculus with 8 samples.

Results

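T follicular helper-like (Tfh-like) CD4 T cells of the mouse meninges were the cells without a Foxp3 UMI in which at least 3 of 7 genes, Cxcr5, Pdcd1, Izumo1r, Sostdc1, Slamf6, Tox2 and Il21, had at least 1 unique molecular identifier (UMI, a counted RNA molecule). They numbered 167 of 5074 meningeal cells kept, 86 of 1661 in replicate 1 and 81 of 3413 in replicate 2. Kept cells held 10 or more counts of their sample's hashtag, no fewer than 5-fold those of any other tag, 500 or more genes and less than 10% UMIs of mitochondrial genes. The 7 rule genes chose the cells, so their levels are given as a description. The reference was the 4333 other cells without a Foxp3 UMI, 1453 and 2880 in the 2 replicates.

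Follicular helper T cells are the CD4 T cells that help B cells in germinal centres. They are known for the receptors CXCR5 and PD-1, the cytokine IL-21 and the transcription factor Bcl6, and they work through contact with B cells by molecules such as CD40 ligand, ICOS and SAP. In tissues outside lymphoid organs, cells that carry part of this programme often lack CXCR5, and PD-1 and folate receptor 4 (encoded by Izumo1r) also mark regulatory and anergic CD4 T cells.

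The study sorted live CD45+ CD3+ CD4+ cells from the meninges of PBS-perfused mice and sequenced their RNA, T-cell receptors (TCR) and hashtag antibodies. Replicate 1 came from Foxp3-GFP mice, whose Foxp3-expressing cells carry a green fluorescent protein, and replicate 2 from B6.WT mice, with no treatment named for either. Genotype and replicate therefore cannot be told apart, and the number of mice behind each meningeal replicate is not given in the sources used here. Hippocampal libraries of the same series were not used here.

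Each replicate is the share of a larger library that carried 1 hashtag. The 2 tag oligonucleotides of the tables were these, shown because they decide which cells belong to the meninges.
Hash7, replicate 1: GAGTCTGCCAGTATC
Hash10, replicate 2: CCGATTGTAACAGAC
For replicate 2 the name and the sequence both matched the label. For replicate 1 the label pairs the name Hash7 with the sequence printed for Hash10, and the name was followed. Among cells that met the other limits with at least 2-fold the counts of any other tag, 7 barcodes occurred in both replicates. No barcode was a Tfh-like cell in both.

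Tfh-like cells made up 5.18% of the kept cells in replicate 1 (95% exact interval 4.16 to 6.36) and 2.37% in replicate 2 (1.89 to 2.94). The mean over the replicates was 3.78% ± 1.98 (SD, n = 2). These cells were deeper than the reference, with a median of 3503.5 against 2894 UMIs in replicate 1 and 2353 against 1603 in replicate 2. With each cell thinned to 1000 UMIs before the rule, which lowers detection in every class, the share was 1.21% and 0.662%. The part of depth in the share was not tested. Doublets were not removed. A second TCR beta chain was present in 4 of 84 Tfh-like cells with a beta chain in replicate 1 (4.76%, 1.31 to 11.7) and in 11 of 67 in replicate 2 (16.4%, 8.49 to 27.5), against 5.65% and 7% of the reference. Leaving out all cells with a second beta chain gave 475 genes in the main comparison below in place of 569. Intervals here and below cover counting error only.

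Most Tfh-like cells met the rule narrowly, with exactly 3 of the 7 genes in 57 and 59 cells. A further 29 and 22 cells had 4 or more, and 198 and 299 cells of the reference had exactly 2. Pdcd1, the gene of PD-1, was at 496 and 500 CPM (a gene's UMIs scaled to the sum's total) in the summed Tfh-like cells of the 2 replicates, against 51.5 and 81.5 CPM in the reference. Izumo1r was at 551 and 636 CPM against 155 and 227 CPM, and Slamf6, an adhesion receptor of lymphocytes, at 366 and 360 against 90.1 and 99.9 CPM. These 3 genes carried most of the choice, with a UMI in 82.6% to 91.4% of the Tfh-like cells.

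The other 4 rule genes were rarer. Cxcr5, the receptor for the follicle chemokine CXCL13, had a UMI in 39.5% and 27.2% of Tfh-like cells, and Tox2, a transcription factor that sustains the Tfh programme, in 30.2% and 28.4%. Sostdc1, a secreted antagonist of BMP and Wnt signals, was seen in 18.6% and 12.3%, and Il21 in 16.3% and 8.64%. Levels of Sostdc1 were 240 and 93.0 CPM, and those of Il21 52.2 and 34.9 CPM, against at most 3.98 CPM for either gene in the reference. In the Foxp3-positive cells below 3 rule genes, a class limited by Il21 itself, Il21 had no UMI in either replicate. The Foxp3-positive cells with 3 or more rule genes, 14 and 23 cells, held 0 and 2 Il21 UMIs (0 and 19.3 CPM).

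To see whether the rule genes travelled together, each was left out in turn and looked up in cells chosen by at least 3 of the other 6. All 7 were found more often in cells so chosen than in the remaining Foxp3-negative cells, in both replicates. The 7 genes were chosen with earlier results of these data known, and the cells so chosen were deeper. These shares are therefore given as a description. Il21 had a UMI in 12 of 84 such cells (14.3%, 7.61 to 23.6) against 4 of 1455 others (0.275%, 0.0750 to 0.702) in replicate 1. In replicate 2 it had one in 5 of 79 cells (6.33%, 2.09 to 14.2) against 12 of 2882 (0.416%, 0.215 to 0.726). All of these are cells of 1 library per replicate, so the intervals cover counting error only and are no test between samples.

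Sostdc1 was found in 15.7% (8.61 to 25.3) against 0.481% (0.194 to 0.988) in replicate 1 and in 10.1% (4.47 to 19.0) against 0.278% (0.120 to 0.546) in replicate 2. For Pdcd1 the shares were 65.9% against 14.3% and 65.6% against 11.4%. Median depth was 3503.5 to 3572 UMIs in the chosen and 2894 to 2907 in the remaining cells of replicate 1, and 2352 to 2803.5 against 1603 to 1609 in replicate 2. With every cell thinned to 1000 UMIs before both steps, only 4 to 20 cells were chosen per gene and replicate. The left-out gene then had a higher share than in the rest for all 7 genes in replicate 1 and for 6 of 7 in replicate 2, where Tox2 had no UMI in 18 chosen cells, which allows a share of up to 18.5% by the exact interval. In replicate 2 the thinned intervals of the chosen and remaining cells overlapped for every rule gene except Sostdc1. Il21, for example, was at 1 of 20 cells (5%, 0.127 to 24.9) against 6 of 2746 (0.218%, 0.0802 to 0.475).

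**Figure D1:**
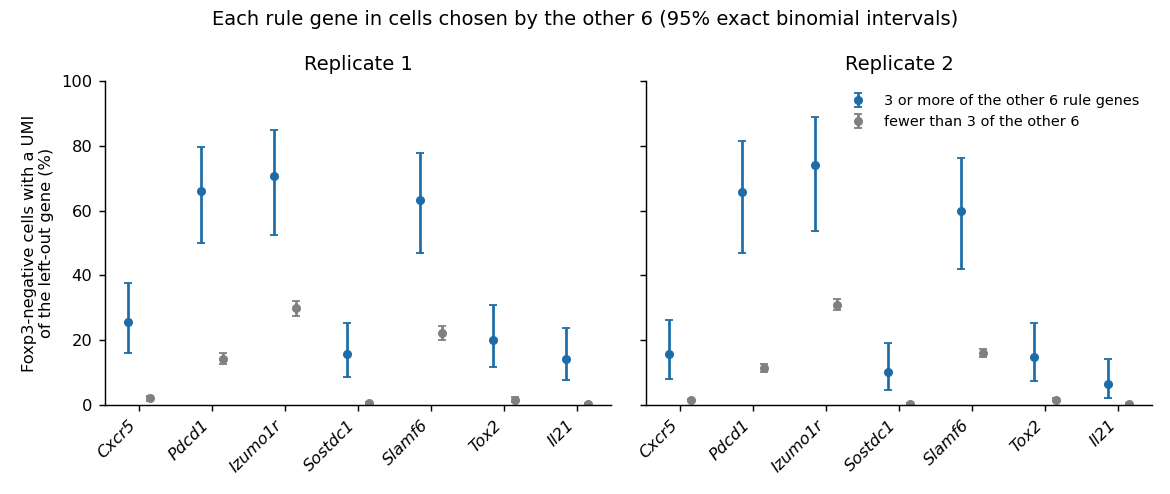
Share of Foxp3-negative cells with a UMI of each rule gene (y axis, percent) among cells with 3 or more of the other 6 rule genes (blue) and among the remaining cells (grey), for replicate 1 (left) and replicate 2 (right), with 95% exact binomial intervals. Every blue point lies above its grey point, for example 65.9% against 14.3% for Pdcd1 in replicate 1.

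Outside the rule genes, the Tfh-like cells were compared with the reference through the summed UMIs of each class in each replicate, 382905 and 257997 UMIs for the Tfh-like cells and 4972348 and 5274339 for the reference. edgeR's quasi-likelihood test with the replicate as a block and Benjamini-Hochberg adjustment over 10706 genes called 569 genes at adjusted p under 0.05 (5.31%), 250 higher (2.34%) and 319 lower (2.98%). These calls depend on the block: without it edgeR called 0 genes, with 648 at an unadjusted p under 0.05. DESeq2 with the block called 93 genes, 53 higher and 40 lower, all of them among the 569. With 4 sums the estimate of spread is thin, so levels below are given for both replicates.

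**Figure D2:**
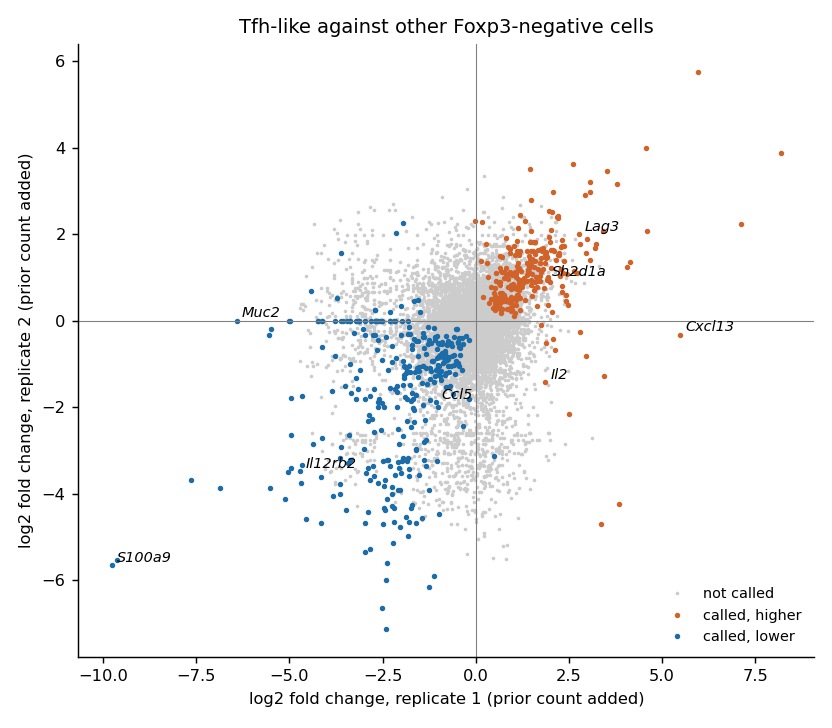
Log2 fold change of Tfh-like against other Foxp3-negative cells within replicate 1 (x axis) and within replicate 2 (y axis), with a prior count added, for all genes tested. Orange points were called higher and blue points lower; of these, 237 of 250 and 272 of 319 had the same direction in both replicates, and Cxcl13 and Il2 are orange points that were not higher in replicate 2.

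The transcription factors and partners that build the Tfh state came first. Of 13 listed Tfh regulators, all 13 were tested, 5 were called higher and none lower. Their median log2 fold change was 1.01 against -0.06 over all genes tested. That median was the value of Irf4, which had 14 and 2 UMIs and was not called (adjusted p = 0.351). Pou2af1 (9 and 0 UMIs), Stat3, Id3, Lef1 and Bach2 were not called either, at 2.095, 0.29, 0.20, -0.45 and -1.39. With the rule on thinned cells the median was 0.15 and 0 of 10 were called, while DESeq2 called 4 of 13. Tox, an HMG-box factor of Tfh and chronically stimulated T cells, was at 170 and 132 CPM against 49.7 and 61.4 CPM and rose by 1.43 ± 0.21 (log2, SE; adjusted p = 1.32e-09). Batf, an AP-1 factor required for Tfh cells, was at 217 and 163 against 70.2 and 92.9 CPM and rose by 1.22 ± 0.19 (adjusted p = 2.12e-08).

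Nfatc1, a calcium-driven factor downstream of the TCR, was at 185 and 298 CPM against 73.8 and 145 CPM. Tcf7, which encodes the stem-like factor TCF-1, was at 274 and 438 against 172 and 225 CPM, and Maf, an inducer of Il21, at 321 and 174 against 169 and 125 CPM. These 3 were the other called members, with log2 fold changes of 1.13, 0.78 and 0.70. The call for Maf was lost with DESeq2 (adjusted p = 0.241) and in cells restricted to a T-cell signature (0.377), which is defined below.

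Bcl6, the factor that defines Tfh cells, was close to the limit of detection. It had 1 UMI in the Tfh-like cells of replicate 1 and 7 in those of replicate 2, from 1 and 4 cells, or 2.61 and 27.1 CPM against 2.21 and 6.07 CPM in the reference. It was not called (adjusted p = 0.326), and 1 UMI lies below the 3 counts taken here as the floor of a sum. Ascl2, a factor that raises Cxcr5, had 4 and 1 UMIs. The log2 fold changes of Bcl6 and Ascl2 were 1.63 and 2.66, above 0 in both replicates, and Ascl2 was not called either (adjusted p = 0.229). With so few UMIs, whether these genes differed was left undecided.

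Of 22 listed receptors and helper molecules of Tfh cells, all 22 were tested, 9 were called higher and none lower, 17 had a log2 fold change above 0, and the median was 0.46. Tigit, an inhibitory receptor, was at 397 and 376 CPM in Tfh-like cells against 97.5 and 102 CPM and rose by 1.91 ± 0.17 (adjusted p = 1.16e-27). Sh2d1a, the gene of the adaptor SAP that Tfh cells need to stay attached to B cells, was at 468 and 310 against 121 and 154 CPM and rose by 1.48 ± 0.16 (adjusted p = 1.76e-17). Tnfrsf4, the costimulatory receptor OX40, was at 454 and 539 against 126 and 162 CPM and rose by 1.75 ± 0.15 (adjusted p = 3.25e-27). For each of the 3 genes both Tfh-like sums lay above both reference sums. The calls also held with DESeq2 and in cells of the same UMI range. That range left out the shallowest and the deepest Tfh-like cells and all reference cells beyond it. It kept 68 and 65 Tfh-like cells, and depth was not matched within it.

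Gpm6b, a membrane glycoprotein, was at 159 and 81.4 CPM against 31.6 and 23.3 CPM, the highest log2 fold change on this list at 2.09 ± 0.26 (adjusted p = 1.25e-13). Tbc1d4, a regulator of vesicle traffic, was at 193 and 205 against 50.7 and 71.5 CPM. Cd200, a ligand of an inhibitory receptor on myeloid cells, was at 104 and 38.8 against 26.4 and 18.2 CPM. The remaining called members were Angptl2, Ctla4 and Icos, at log2 fold changes of 1.75, 1.005 and 0.68.

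Icos, the costimulator that Tfh cells need, was at 319 and 295 CPM against 172 and 203 CPM. Its call was lost with DESeq2 (adjusted p = 0.133) and in cells restricted to a T-cell signature (0.192). The calls for Cd200 (0.111 and 0.152) and Ctla4 (0.0506 and 0.146) were lost in the same settings. Cd40lg, the CD40 ligand through which T cells signal to B cells, was at 246 and 182 CPM against 272 and 240 CPM and was not called (log2 fold change -0.30 ± 0.17, adjusted p = 0.453), but was called lower in cells of the same UMI range (0.0182). Cd28, the costimulatory receptor of naive and memory T cells, was not called either, at a log2 fold change of 0.36.

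Of 10 genes that oppose the Tfh programme, 2 were called lower and none higher. Id2, an inhibitor of E proteins found in Th1 cells, was at 415 and 360 CPM against 1023 and 739 CPM and fell by 1.23 on the log2 scale (SE 0.13, adjusted p = 1.01e-17). Klf2, which drives cells out of tissue and represses Cxcr5, was at 154 and 151 against 272 and 267 CPM (log2 fold change -0.86 ± 0.18, adjusted p = 9.92e-05), a call lost with DESeq2 (0.091), in the same UMI range (0.21) and with the T-cell signature (0.339). Prdm1, the gene of Blimp-1 that represses Bcl6, was at 5.22 and 7.75 against 13.7 and 12.7 CPM and was not called (adjusted p = 0.565). The median of this list was -0.30.

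Among secreted and membrane-bound cytokines, 9 of 15 were tested, 5 were called higher and 2 lower. Tnfsf8, the CD30 ligand, was at 212 and 101 CPM against 41.2 and 61.2 CPM (log2 fold change 1.65 ± 0.21, adjusted p = 9.08e-13). Tnfsf11, the RANK ligand, was at 131 and 124 against 38.0 and 62.4 CPM (1.36 ± 0.23, adjusted p = 1.70e-07). A Tnfsf8 UMI was present in 43.0% and 22.2% of Tfh-like cells against 10.3% and 8.75% of the shallower reference cells, and in 25% and 10.3% against 4.54% and 5.98% with cells thinned to 1000 UMIs. For Tnfsf11 the shares were 29.1% and 33.3% against 10.8% and 9.13%, and 10.7% and 20.5% against 4.17% and 5.39% when thinned.

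The Il2 and Cxcl13 calls rested on few cells. All 55 Il2 UMIs of replicate 1 came from 1 cell, and in replicate 2 Il2 was lower than in the reference, at 15.5 against 41.3 CPM. The log2 fold change of Il2 was negative in 7 alternative settings over both replicates, for example -3.33 without the richest cell of each gene in each sum. The 93 UMIs of Cxcl13, the follicle chemokine, came from 2 cells of replicate 1, with none in replicate 2. Tnf was at 112 and 140 CPM against 56.3 and 74.9 CPM, and its call was lost in cells of the same UMI range (adjusted p = 0.52).

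Il4 had no UMI in the Tfh-like cells of either replicate, against 15.9 and 17.4 CPM in the reference, so it was at least 2.03-fold and 1.5-fold lower, counting 3 UMIs per sum as the floor. Its call was lost in cells restricted to a T-cell signature (adjusted p = 0.114). Areg, the tissue-repair factor amphiregulin, was at 54.8 CPM and 0 against 157 and 8.15 CPM, a call lost in the same UMI range, where the sign turned (log2 fold change 0.62, adjusted p = 0.739). Ifng, the Th1 cytokine, was at 70.5 and 108 against 91.7 and 138 CPM and was not called (adjusted p = 0.421), and Il10 had 8 and 1 UMIs.

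Of 19 genes of Th1 and cytotoxic T cells, 9 were called lower and 1 higher, with a median log2 fold change of -0.72. Cxcr6, a chemokine receptor of tissue-resident T cells, was at 164 and 295 CPM against 586 and 652 CPM and fell by 1.53 (SE 0.15, adjusted p = 1.15e-20). Ccl5, a chemokine of effector cells, was at 935 and 345 against 1922 and 1227 CPM and fell by 1.40 (SE 0.12, adjusted p = 6.79e-30). Of the 358 Ccl5 UMIs of the Tfh-like cells of replicate 1, 188 came from 1 cell.

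Nkg7, a granule membrane protein, was at 460 and 585 against 792 and 910 CPM (log2 fold change -0.76 ± 0.13). Il12rb2, the IL-12 receptor chain of Th1 cells, had no UMI in replicate 1 and 1 in replicate 2, or 0 and 3.88 CPM against 18.1 and 49.5 CPM. Ccl4, Fasl, Klrd1, Tbx21 and Xcl1 were the other lower calls, at log2 fold changes of -2.19, -1.20, -1.48, -0.80 and -0.64. The Ccl4 level rested on few cells, since 507 of its 976 UMIs in the reference of replicate 1 and 14 of its 18 in the Tfh-like cells came from 1 cell each. It had a UMI in 47 of 1453 and 39 of 2880 reference cells. Xcl1 was lower in replicate 1 and higher in replicate 2, where 41 of its 73 UMIs came from 1 cell. Tbx21, the gene of the Th1 factor T-bet, lost its call with DESeq2 (adjusted p = 0.934).

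Gzmk, a granzyme, went the other way, at 264 and 159 CPM against 112 and 49.3 CPM (log2 fold change 1.36 ± 0.19, adjusted p = 1.24e-10). In replicate 1, 42 of its 101 UMIs came from 1 cell, and the call was lost in cells restricted to a T-cell signature (0.389). Cxcr3, the receptor that guides Th1 cells into inflamed tissue, was at 402 and 395 against 363 and 373 CPM and was not called (log2 fold change 0.08 ± 0.15, adjusted p = 0.913).

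**Figure D3:**
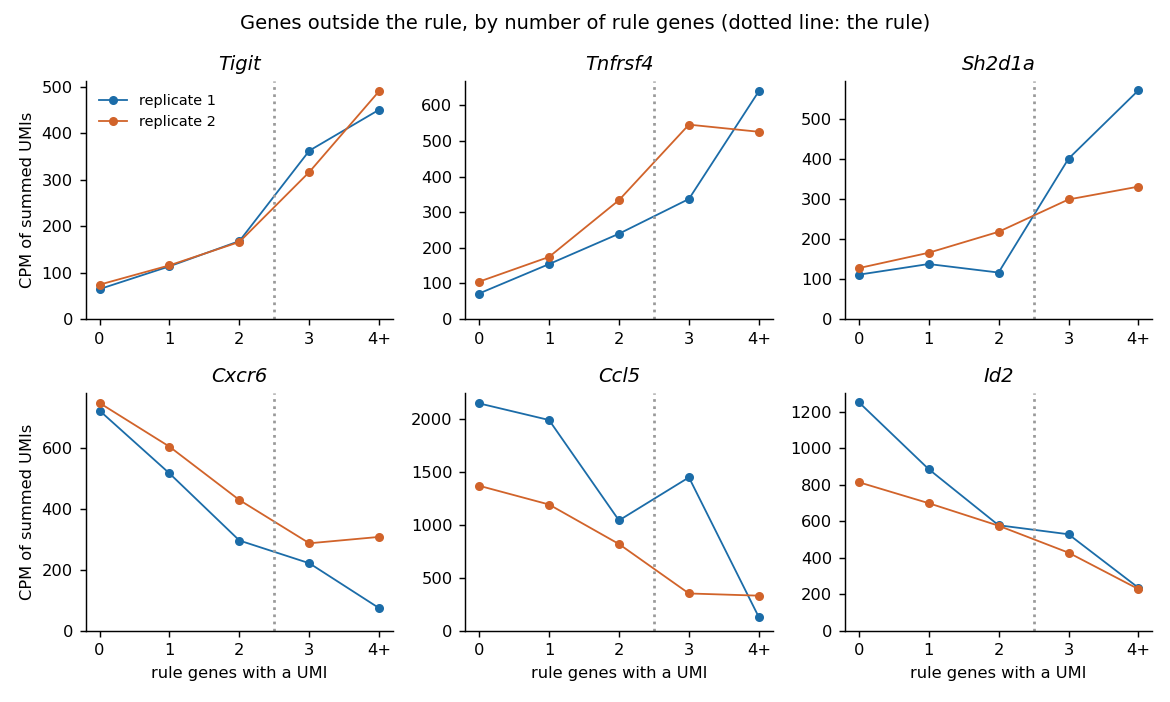
Levels (y axis, CPM of summed UMIs) of 6 genes outside the rule in Foxp3-negative cells with 0, 1, 2, 3 and 4 or more rule genes (x axis), with replicate 1 in blue, replicate 2 in orange and the rule as a dotted line. Tigit went from 64.6 and 74.2 CPM at 0 rule genes to 451 and 491 CPM at 4 or more, and Id2 from 1254 and 815 CPM to 236 and 229 CPM.

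Among the 6 genes plotted by number of rule genes, Tigit and Id2 kept 1 order in both replicates. Tigit was at 168 and 166 CPM in cells with exactly 2 rule genes and at 363 and 317 CPM in those with exactly 3. Cxcr6 was at 297 and 430 CPM with 2, 222 and 288 CPM with 3, and 74.1 and 309 CPM with 4 or more. The other genes broke the order in 1 replicate each. Ccl5 in replicate 1 was at 1041 CPM with 2 rule genes and 1447 CPM with 3, and Sh2d1a in replicate 1 at 138 CPM with 1 and 117 CPM with 2. Tnfrsf4 in replicate 2 was at 546 CPM with 3 and 526 CPM with 4 or more, and Cxcr6 broke the order there too.

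Genes of naive and recirculating T cells gave 5 lower and 1 higher call among 12 tested, with a median log2 fold change of -0.66. Il7r, the IL-7 receptor of resting T cells, was at 212 and 229 CPM against 404 and 383 CPM (-0.89 ± 0.16, adjusted p = 3.51e-06). Ly6c1 was at 7.83 and 23.3 against 120 and 70.3 CPM, Igfbp4 at 28.7 and 3.88 against 154 and 93.3 CPM, and Satb1 at 28.7 and 38.8 against 56.1 and 77.4 CPM. The higher call was Tcf7, and the remaining lower call was Klf2. Ccr7 and Lef1, which mark naive cells, were not called, at log2 fold changes of 0.56 and -0.45.

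Of 11 genes known from regulatory T cells that were tested, 5 were called higher and none lower, 8 had a log2 fold change above 0, and the median was 0.86. By the rule, no cell of the group had a Foxp3 UMI, but regulatory T cells in which Foxp3 went undetected also pass it. Among cells with 3 or more rule genes, a Foxp3 UMI was present in 14.0% and 22.1%. With cells thinned to 1000 UMIs after the rule this was 2.04% and 7%. The part of such cells in the group was not tested. Ikzf2, the gene of Helios, was at 308 and 349 CPM against 106 and 124 CPM (1.48 ± 0.17, adjusted p = 6.30e-16). Capg, an actin-capping protein, was at 347 and 457 against 218 and 189 CPM, and Nrp1, neuropilin-1, at 118 and 116 against 57.1 and 62.0 CPM. Tnfrsf4 and Ctla4 are on both lists. Il2ra, the IL-2 receptor alpha chain, was at 39.2 and 42.6 against 29.0 and 57.5 CPM and was not called (adjusted p = 0.984).

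A list of anergy and chronic stimulation genes gave 7 higher and 1 lower call among 17 tested, with a median log2 fold change of 0.49. Lag3, an inhibitory receptor, was at 167 and 50.4 CPM against 23.3 and 11.6 CPM and rose by 2.57 ± 0.29 (adjusted p = 2.67e-16). Egr2, a TCR-induced factor of anergic and Tfh cells, was at 44.4 and 31.0 against 11.3 and 9.48 CPM. Nt5e, the ectoenzyme CD73, was at 62.7 and 50.4 against 23.9 and 34.3 CPM, a call lost with DESeq2 (adjusted p = 0.901). Dgkz, Tox, Tigit and Nrp1 were the other higher calls and Nr4a1 the lower one.

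Immediate early genes, which cells also switch on during tissue dissociation, gave 6 lower calls and 1 higher among 16 tested. Jun was at 178 and 112 CPM against 598 and 224 CPM, Fos at 319 and 345 against 1062 and 408 CPM, and Junb at 755 and 1074 against 1147 and 1552 CPM. The other lower calls were Fosb, Ier2 and Nr4a1, and the higher one was Egr2. In cells of the same UMI range 2 of 15 were called lower and none higher. Interferon response genes gave no call among 12 tested with edgeR, with 6 at an unadjusted p under 0.05 and a median of -0.50, and none with DESeq2. With a hashtag margin of 20, 4 of the 12 were called lower, and with at least 4 rule genes 6 were.

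Cell cycle genes gave 10 higher calls among 12 tested, with a median of 1.07, but these came from few cells. Birc5, a mitotic survivin, was at 70.5 and 128 CPM against 22.5 and 46.6 CPM, with a UMI in 6.98% and 11.1% of Tfh-like cells against 2.20% and 2.71%. Mki67, a marker of dividing cells, had one in 8.14% and 12.3% against 4.82% and 4.41%. In cells of the same UMI range none of 11 tested was called by edgeR, with 1 at an unadjusted p under 0.05 and a median of 0.19. With cells thinned after the rule none of 7 was called, with 1 at an unadjusted p under 0.05, but the median was 0.75. With the T-cell signature 2 of 11 were called, at a median of 1.18.

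The genes with the highest fold changes that the lists did not hold were Eea1, an early endosome protein, Ccr8, a chemokine receptor, Lta, the gene of lymphotoxin alpha, and the unannotated transcripts 2310001H17Rik and A430093F15Rik. The transcript 2310001H17Rik was at 298 and 186 CPM against 60.9 and 59.5 CPM (1.97 ± 0.19, adjusted p = 3.71e-23). Eea1 was at 282 and 143 against 67.8 and 59.1 CPM, and Ccr8 at 88.8 and 105 against 31.2 and 28.1 CPM. Lta was at 115 and 69.8 against 20.5 and 48.7 CPM, a call lost with DESeq2 (0.107). Pclaf, Rrm2 and Ube2c, all genes of dividing cells, were also among the highest, and their calls were lost in cells of the same UMI range, at adjusted p of 0.974, 0.407 and 0.647. In replicate 1, 36 of 64 Pclaf UMIs came from 1 cell, and in replicate 2, 39 of 61 Ube2c UMIs did.

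Cd74, the invariant chain of antigen-presenting cells, was among the highest too, at 606 and 283 CPM against 105 and 212 CPM. Of its 232 UMIs in replicate 1, 204 came from 1 cell, which also held 23 UMIs of the B-cell gene Cd79a together with 2 of Cd3e. In replicate 2, 38 of its 73 UMIs came from 1 cell. The Cd74 call was lost with DESeq2 (adjusted p = 0.9997) and held with the T-cell signature, at a log2 fold change of 2.24, while without the richest cell per gene and sum it was -0.037. In replicate 1, 7 of 8 B-cell markers had a UMI in the Tfh-like cells, at a summed 141 CPM against 39.0 CPM in the reference, and 13.1 CPM without that cell. In replicate 2 all but 1 were at 0, at 3.88 against 38.3 CPM.

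The lowest genes were S100a9 and S100a8, known from neutrophils, Plvap, known from endothelium, Jchain, known from plasma cells, and Nupr1, Serpinb1a, Ccn1, Klk1, Lgals4 and Cd63. S100a9 had no UMI in the Tfh-like cells, and 3073 of its 3075 UMIs in the reference of replicate 1 came from 1 cell, as did 2789 of 2790 S100a8 and 1655 of 2998 Jchain UMIs, counted per gene. Others, and the remaining Jchain UMIs, were spread over many cells of replicate 1 in both classes and were nearly absent from replicate 2. Lgals4 had a UMI in 18.6% of Tfh-like and 28.2% of reference cells of replicate 1, and in none and 0.139% of those of replicate 2. Jchain had 44.4 CPM against 603 CPM in replicate 1, but its log2 fold change was 0.23 in cells of the same UMI range. The source of these transcripts was not tested. Myeloid markers summed to 36.6 and 81.4 CPM in the Tfh-like cells and to 171 and 176 CPM in the reference, with Csf1r, Itgam, Itgax and Flt3 at 0 in the Tfh-like cells. A myeloid UMI was present in 12.8% of Tfh-like against 5.85% of reference cells in replicate 1, the opposite order to the sums, and in 4.94% against 6.18% in replicate 2. In the reference of replicate 1, 309 of the 851 myeloid UMIs came from 1 cell. Stromal and red cell markers summed to 138 and 65.9 CPM against 344 and 165 CPM, with Cldn5 and Hba-a1 at 0 in the Tfh-like cells. A UMI of these markers was present in 19.8% against 15.4% of cells in replicate 1 and in 17.3% against 7.6% in replicate 2. The Tfh-like cells were deeper, and the part of these markers in the results was not tested.

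Cd8a and Cd8b1 were higher in the Tfh-like cells, with 16 Cd8a UMIs in 1 cell of replicate 1 and none in replicate 2. Markers of CD8 and gamma-delta T cells summed to 104 and 15.5 CPM in Tfh-like cells against 22.1 and 10.4 CPM, with Trdc at 0 in the Tfh-like cells. Markers of innate lymphoid and NKT cells summed to 31.3 and 27.1 against 35.2 and 80.0 CPM, with Ncr1 and Il13 at 0. T-cell identity genes were at 7208 and 7392 against 5739 and 7116 CPM, and 84 of 86 and 75 of 81 Tfh-like cells had at least 3 of 6 CD3 and TCR constant genes.

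The comparison was repeated with cells that had at least 3 of those 6 genes and no UMI of 17 markers of other cell types, among them Plvap, Jchain, Klk1, Lgals4 and Muc2. This T-cell signature, chosen after the data were seen, left 33 and 67 Tfh-like cells and called 151 genes, 98 higher and 53 lower. Of the genes above, Tigit (log2 fold change 1.79), Tnfrsf4 (1.88), Gpm6b (1.92), Lag3 (2.52), Ikzf2 (1.67) and Sh2d1a (1.19) were higher, and Cxcr6 (-1.75), Ccl4 (-3.84), Ccl5 (-1.08) and Id2 (-1.19) lower. Its lowest gene was Itgb3, at 7.83 CPM and 0 against 17.5 and 44.2 CPM over all cells, followed by Mmp9, Ccl4, Il12rb2 and Itga1. Itga1, a collagen-binding integrin of resident T cells, was at 15.7 and 3.88 against 61.1 and 40.0 CPM.

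Tfh-like cells were then set against 2 classes of the same libraries, 2058 Th1-gated cells with at least 3 of Tbx21, Ifng, Cxcr3, Cxcr6, Ccl5 and Nkg7, and 537 Foxp3-positive cells with fewer than 3 rule genes. All gate genes were left out, and 6585 genes were tested by edgeR over 8 sums, 2 of them of a class not reported here, with the replicate as a block. Against Th1-gated cells 294 genes were called (4.46%), 158 higher (2.4%) and 136 lower (2.07%). Against Foxp3-positive cells 117 were called (1.78%), 55 higher (0.835%) and 62 lower (0.942%). Without the block edgeR called 1 and 0 genes, with 506 and 455 at an unadjusted p under 0.05. The contrasts share the Tfh-like sums, so their values are given side by side.

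Gpm6b was higher than in Th1-gated and in Foxp3-positive cells, by 3.22 ± 0.24 and 2.14 ± 0.28 on the log2 scale (adjusted p = 4.07e-05 and 0.00261). Sh2d1a was also higher than in both, by 1.35 and 1.18, and so were Nfatc1 by 1.12 and 1.36 and Tnfsf11 by 1.58 and 1.13. Tcf7 was higher than in Th1-gated cells by 1.22 and than in Foxp3-positive cells by 1.74. Most listed genes did not differ from the Foxp3-positive cells. There 2 of 9 Tfh regulators, 3 of 20 receptors and helper molecules and 0 of 15 anergy genes were higher, and 2 of the 20 lower. Against Th1-gated cells 4, 10 and 7 were higher and none lower. Tox, Batf, Maf, Icos and Lag3 were not called against Foxp3-positive cells, at log2 fold changes of 0.69, 0.53, 0.13, -0.65 and 1.30.

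Tigit was higher than in Th1-gated cells by 2.17, while against Foxp3-positive cells the log2 fold change was 0.08 ± 0.20 (adjusted p = 0.925). Ikzf2 was at 591 and 536 CPM in the Foxp3-positive cells, and Tnfrsf4 at 810 and 725 CPM, above the Tfh-like values of both replicates. Neither difference passed the test (log2 fold change -0.76, adjusted p = 0.166, and -0.62, adjusted p = 0.0594). Ctla4 was lower than in Foxp3-positive cells by a log2 fold change of -1.34 (adjusted p = 0.0205). Of 9 regulatory T-cell genes tested there, 4 were lower in the Tfh-like cells, Ctla4, Il2ra, Klrg1 and Tnfrsf18, and none higher.

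Gzmk was higher than in Foxp3-positive cells by 3.42, and at 264 and 159 CPM it stood beside 183 and 61.6 CPM in the Th1-gated cells (adjusted p = 0.0591). Among the 3 highest and 3 lowest genes of each contrast, Slc30a3, a zinc transporter, was higher than in both classes. Its 22 and 19 UMIs came from 4 and 3 cells, with 16 UMIs in 1 cell of each replicate. Ccl1, a chemokine that binds CCR8, was higher than in Foxp3-positive cells, and 85 of 86 and 41 of 42 UMIs came from 1 cell of each replicate. Cacna1d, Il1r2 and Spp1 were the other highest genes, and Il4, Rbp4, Ltb4r1, Mfap5, Plvap and Wfdc2 the lowest. Il4 against Th1-gated and Ltb4r1 against Foxp3-positive cells were lower in both replicates. The other lowest genes rested on replicate 1. Rbp4 and Mfap5 were each at 7.83 CPM there, against 161 and 147 CPM in Foxp3-positive cells. Plvap and Wfdc2 were at 0 against 74.4 and 30.7 CPM in Th1-gated cells. In replicate 2 none of these 4 exceeded 0.738 CPM in either class of its contrast.

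**Figure D4:**
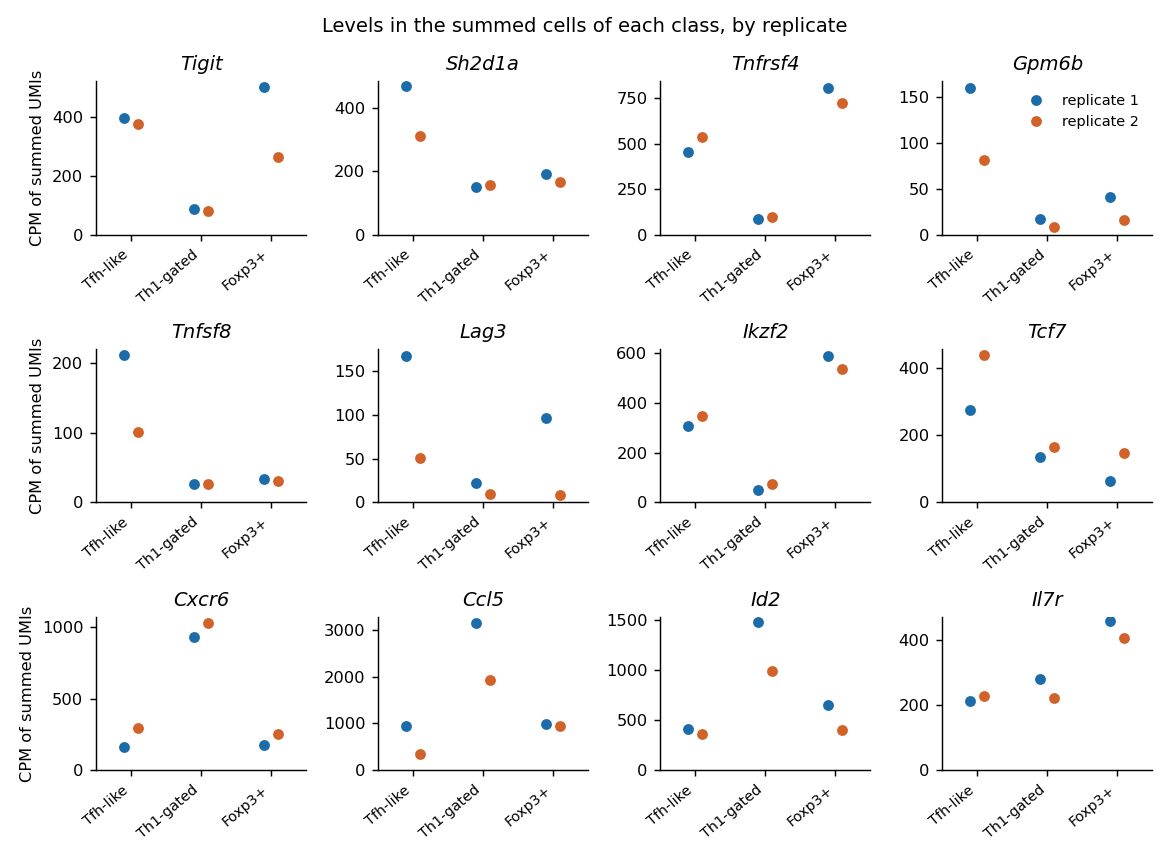
Levels (y axis, CPM of summed UMIs, linear) of 12 genes in Tfh-like, Th1-gated and Foxp3-positive cells with fewer than 3 rule genes (x axis), with replicate 1 in blue and replicate 2 in orange. Gpm6b lies at 159 and 81.4 CPM in the Tfh-like cells and at most at 40.9 CPM in the other classes, while Tnfrsf4 and Ikzf2 are highest in the Foxp3-positive cells.

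Cells that passed the 7-gene rule but had a Foxp3 UMI, as follicular regulatory T cells would, numbered 14 and 23. A Foxp3 UMI was present in 14 of 100 cells with 3 or more rule genes in replicate 1 (14.0%, 7.87 to 22.4) and in 23 of 104 in replicate 2 (22.1%, 14.6 to 31.3), against 6.92% and 13.0% of the cells with fewer. With cells thinned to 1000 UMIs after the rule, the shares were 2.04% (0.248 to 7.18) against 2.86% (2.07 to 3.85) in replicate 1, from 2 of 98 cells, and 7% (2.86 to 13.9) against 8.52% (7.53 to 9.59) in replicate 2, from 7 of 100. These intervals are too wide to tell whether the share differed at equal depth. In the Foxp3-positive rule cells Tigit was at 264 and 636 CPM and Tnfrsf4 at 964 and 955 CPM, and Gpm6b at 57.4 and 48.2 CPM. Of those with a beta chain, 5 of 13 in replicate 1 (38.5%, 13.9 to 68.4) and 6 of 20 in replicate 2 (30%, 11.9 to 54.3) had a second one. These shares were above the 4.76% and 16.4% of the Tfh-like cells. Median depth was 5921.5 and 2728 UMIs. The part of doublets in this class was not tested.

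The TCR beta chain tied Tfh-like cells to other cells of the same replicate. A clonotype was a beta chain with the same V and J segments and the same CDR3 nucleotides, among cells with exactly 1 beta chain, 80 Tfh-like cells in replicate 1 and 56 in replicate 2. The clonotypes that held 2 or more Tfh-like cells are printed first, followed by the largest that held 1 in each replicate. Each runs 5′ to 3′, in lower case where its start matches the end of the GENCODE M21 V segment and its end the J segment, and in capitals between them.
Replicate 1, TRBV20 and TRBJ2-4: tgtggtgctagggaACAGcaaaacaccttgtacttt
Replicate 2, TRBV5 and TRBJ2-5: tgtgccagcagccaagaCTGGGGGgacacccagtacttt
Replicate 2, TRBV15 and TRBJ1-4: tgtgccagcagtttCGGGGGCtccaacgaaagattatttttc
Replicate 2, TRBV10 and TRBJ2-7: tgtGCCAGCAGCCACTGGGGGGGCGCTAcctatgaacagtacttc
Replicate 2, TRBV19 and TRBJ2-7: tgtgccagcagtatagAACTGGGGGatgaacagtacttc
Replicate 1, TRBV12-2 and TRBJ2-1: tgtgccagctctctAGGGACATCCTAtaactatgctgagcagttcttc
Replicate 2, TRBV23 and TRBJ2-1: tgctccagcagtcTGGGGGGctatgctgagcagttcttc
The TRBV10 segment of that annotation shares only the first 3 bases with its CDR3, so its capitals also cover bases that another allele or transcript may hold.

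Clonotypes of 2 or more cells held 13 of 80 Tfh-like cells in replicate 1 (16.2%, 8.95 to 26.2) and 19 of 56 in replicate 2 (33.9%, 21.8 to 47.8). The same share of the reference was 21.6% (19.3 to 24.1) in replicate 1 and 14.99% (13.4 to 16.7) in replicate 2. The 2 replicates thus pointed in opposite directions, with a difference of -5.37 points in replicate 1 and 18.94 points in replicate 2. With 2 replicates no exact permutation test can reach a p under 0.05, and none was run. A hashtag margin of 2 or 20, at least 2 or 4 rule genes, and clonotypes by both chains each kept these opposite signs, but not the sizes. The differences were -1.46 and 15.45 points with a margin of 2, -6.35 and 14.88 with a margin of 20, -8.70 and 4.41 with at least 2 rule genes, and -13.87 and 27.51 with at least 4. By both chains they were -4.65 and 14.57 points.

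Nearly all of these clonotypes reached outside the Tfh-like cells. In replicate 1 all 12 did, and 1 of them, with TRBV20 and TRBJ2-4, held 2 Tfh-like cells and 1 other cell, with 2 different alpha chains among the 3. In replicate 2, 13 of 15 did. A reference cell with exactly 2 rule genes, just short of the rule, was in 4 of the 12 and 5 of the 15. The part of detection in this overlap was not tested. The clonotype with TRBV5 held 2 Tfh-like cells and 3 others, of which 2 had exactly 2 rule genes, and that with TRBV15 held 2 Tfh-like and 2 others, 1 of them Th1-gated.

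The 2 clonotypes confined to Tfh-like cells, with TRBV19 and with TRBV10, held 2 cells each. Both cells of the first had the same alpha chain, and those of the second had different ones. The largest clonotype with a Tfh-like cell, with TRBV23, had 11 cells, among them 1 Tfh-like and 4 Th1-gated. Its 10 cells with exactly 1 alpha chain held 2 different alpha chains. In replicate 1 the largest, with TRBV12-2, had 4 cells, 1 Tfh-like and 3 Th1-gated.

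Across the 2 replicates, 6 of 12 and 7 of 15 clonotypes with a Tfh-like cell also held a Th1-gated cell, and 2 and 3 held a Foxp3-positive cell. These clonotypes are by beta chain alone, and 2 of the 12 and 4 of the 15 held 2 or more different alpha chains. By cells, 16.2% (8.95 to 26.2) and 26.8% (15.8 to 40.3) of Tfh-like cells shared their clonotype with another class. Among Th1-gated cells this share was 12.2% (9.80 to 14.8) and 10.7% (8.65 to 12.9). A share across classes depends on class size, since a small class has more cells outside it to match. The difference between classes was not tested.

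No Tfh-like clonotype occurred in both replicates, and 3 of 1133 and 1937 clonotypes of all cells did. The Tfh-like cells used 20 and 18 V segments, led by TRBV2 with 14 cells in replicate 1 and by TRBV12-2+TRBV13-2, a joint assignment, with 10 cells in replicate 2. The invariant alpha chain of NKT cells was seen in 1 and 5 Tfh-like cells of the 121 and 419 cells that carried it.

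**Figure D5:**
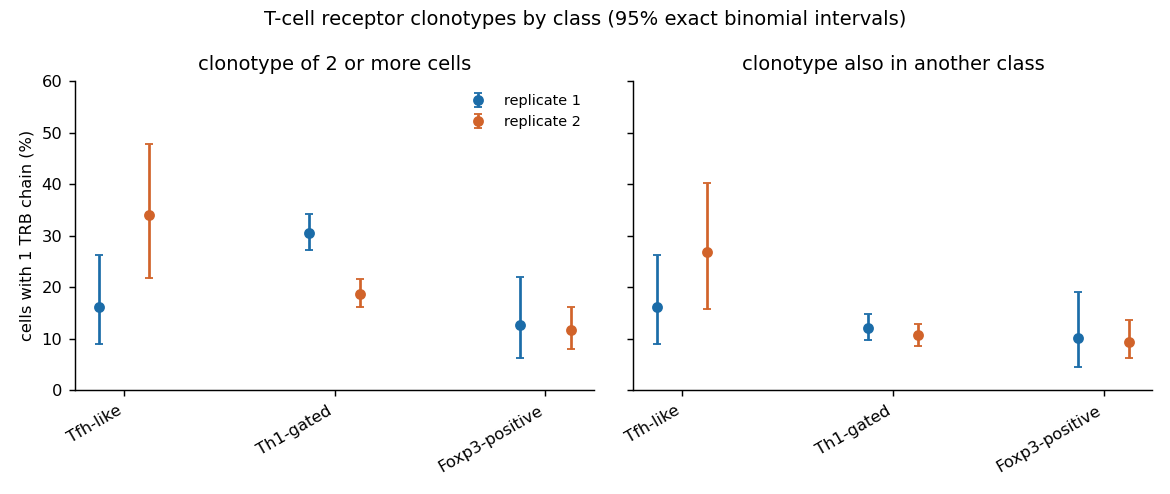
Share of cells with exactly 1 TCR beta chain (y axis, percent) whose clonotype held 2 or more cells of the replicate (left) or also held a cell of another class (right), by class (x axis), with replicate 1 in blue, replicate 2 in orange and 95% exact binomial intervals. The Tfh-like cells lie below the Th1-gated cells in replicate 1 (16.2% against 30.6%) and above them in replicate 2 (33.9% against 18.7%).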

How the data were processed

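Per the labels, meningeal CD4 T cells of 2 replicates had RNA, TCR and hashtag libraries. The RNA tables, as deposited, give unnormalized UMI counts for each gene in each barcode, written by Cell Ranger 4.0.0 (replicate 1) and 6.0.0 (replicate 2) per the file headers, while the submitters' processing notes name Cell Ranger 6.1.0, Seurat and mm10. The labels' protocols name a 3' kit and the series design a 5' kit. The deposited hashtag counts and TCR contigs were used as given, without non-productive contigs.

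Counts of genes with the same symbol were summed, then counts were summed over the cells of each class and replicate. They were tested with edgeR 4.0.16 (R 4.3.3; TMM, filterByExpr, quasi-likelihood, Benjamini-Hochberg), with the replicate as a block because both sums of a replicate come from 1 library; over 10706 genes their deviations correlated with r = 0.48. DESeq2 1.42.0 and other cell choices were alternatives. The edgeR step was also run on simulated counts with known changes. Shares have exact Clopper-Pearson 95% intervals. Rule and gate genes entered no test of their own contrast. The T-cell signature, the removal of the richest cell per gene and shares of 1 replicate alone were added after the data were seen.

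Named genes were the 15 highest and 10 lowest called genes that moved 1 way in each replicate, with a mean log2 CPM no lower than 5, the members of 3 Tfh and cytokine lists, called members of other lists or up to 4 with the largest counts, and the 3 highest and 3 lowest per class contrast; others were picked after their values were seen. The members and all gene lists were chosen with earlier results of these data known. With the replicate as a block, differences in level between the libraries are taken out. In the main comparison the p-values rest on a spread estimated mostly over all genes together, not on each gene's own variation between libraries. A small p-value therefore does not show that the replicates moved alike. Il2 was called by edgeR (adjusted p = 0.00422) at log2 fold changes of 1.87 and -1.43 within the replicates. The SE given is the log2 fold change over the square root of the test's F value. Whether the replicates were separate animals or batches is not stated, so these p-values cannot be read as a test between animals. Hippocampal libraries and cells of other hashtags were left out. 1 comparison class is not reported here. 1 listed gene, Tcrg-C1, was not matched.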

Additional observations from a re-analysis of the deposited data

How the results depend on the processing

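The number of genes called between Tfh-like and other Foxp3-negative cells, 569, moved by over 1.5 times under 9 alternatives. It was 0 with no replicate block, 93 with DESeq2, 357 with at least 4 rule genes, 317 in the same UMI range, 128 without cells with a marker of another cell type, 151 in cells restricted to a T-cell signature, 82 with cells thinned after the rule, 55 with the rule on thinned cells, and 187 with the rule on a random part of the UMIs. The number of called genes on the 12 lists, 62 of 144 tested, became 0, 28, 30, 32, 22, 12 and 40 with no replicate block, with DESeq2, without marker cells, with the T-cell signature, thinned after the rule, with the rule on thinned cells and with the random part. The class contrasts against Th1-gated and Foxp3-positive cells fell from 294 and 117 to 1 and 0 with no replicate block. The mean share of 3.78% became 14.1% with at least 2 rule genes, 1.20% with at least 4 and 0.938% with the rule on thinned cells. The sign of the log2 fold change turned as follows. With the rule on thinned cells for Maf (-0.35), Ctla4 (-0.88), Il2 (-8.39), Cxcr3 (-0.37), Gzmk (-0.19), Nrp1 (-0.35), Capg (-1.30), Nt5e (-0.14), Mki67 (-8.15), Birc5 (-0.19), Pclaf (-0.41), Cd74 (-2.13), Ube2c (-0.38). With at least 2 rule genes for Prdm1 (0.013), Il2ra (0.30), Areg (0.22), Cxcr3 (-0.0072), Nr4a1 (0.33). With a hashtag margin of 2 for Il2ra (0.32), Cxcr3 (-0.0088). Against cells with 0 rule genes for Il2ra (0.24), Jchain (0.39). Thinned after the rule for Il2ra (0.050), Areg (0.055), Dgkz (-0.15), Pclaf (-0.28). With the rule on a random part of the UMIs for Cd40lg (0.17), Nr4a1 (0.0062), Cd74 (-1.95). With at least 4 rule genes for Il2 (-3.53), Cxcr3 (-0.26), Xcl1 (0.057), Cd8b1 (-0.044), Cd74 (-1.62), Ube2c (-1.51). In the same UMI range for Il2 (-2.70), Areg (0.62), Pclaf (-0.16), Rrm2 (-1.85), Jchain (0.23). Without cells with a second beta chain for Il2 (-2.51). Without marker cells for Il2 (-2.40), Jchain (0.097). Without the richest cell per gene for Il2 (-3.33), Il10 (-0.94), Cd74 (-0.037). With the T-cell signature for Il2 (-1.99), Ccr7 (-0.084). With no filter on low counts for Cxcr3 (-0.0037). With at least 1000 genes for Cxcr3 (-0.040). Leaving out 1 replicate turned the sign of Il2ra (-0.48 to 0.40), Il2 (-1.43 to 1.87), Cxcl13 (-0.32 to 5.48), Xcl1 (-2.00 to 0.34), Ccr7 (-0.0097 to 0.96), Cd8a (-0.81 to 2.96); these values within 1 replicate have no test. The cause of these turns was not tested, and the replicate block changed no sign. Fewer cells and UMIs enter the thinned, split and T-cell settings. The values of Bcl6, Ascl2 and Il10 rest on few counts, with 8 or fewer UMIs per Tfh-like sum.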
